A study of Mus musculus with 33 samples.

Results

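Sorted mature olfactory sensory neurons from mice heterozygous for a null allele of Dnmt3a (Het) were compared with the same cells from wild-type mice (WT). The comparison covers 14744 genes with a value in both genotypes, of 14751 rows in the deposited table, and 14738 of them passed a filter of 0.5 or more in at least 2 of the 3 genotype columns. It rests on 4 of the 33 samples of the series: 2 WT and 2 Het RNA-seq libraries, with 2 libraries from homozygous null animals (KO) standing beside them. All mice were 3 weeks old, the neurons were isolated by fluorescence-activated sorting, and ribosomal RNA was depleted before sequencing. Both WT libraries were made with the ScriptSeq kit from 200 ng of RNA and both KO libraries with the NuGEN Encore kit from 100 ng, while Het had 1 library of each kit, all amplified for 15 cycles. Since WT holds no NuGEN library, a difference seen in 1 Het library cannot be told apart from one of the kit. The deleted exons, the strain, the sex of the animals, the number of animals per library and the sorting marker are not given in the sources used here.

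Dnmt3a is a de novo DNA methyltransferase: it adds methyl groups to cytosines that were not methylated before, in contrast to Dnmt1, which copies an existing pattern after replication. Neurons keep making Dnmt3a after their last division and use it to methylate cytosines in and around genes, including those of other lineages. A mature olfactory sensory neuron detects odorants through 1 odorant receptor, chosen from a very large gene family, and turns binding into a current through a G protein, adenylyl cyclase and a cyclic nucleotide-gated channel in its cilia. The comparison asks which RNAs differ in these neurons when 1 of the 2 copies of the gene is lost.

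The deposited table gives 1 pooled value per genotype on an RPKM scale (reads per length of gene, scaled by library). Each pooled value could be written as the mean of 2 libraries of whole reads, in exactly 1 way for 14736 genes (99.9%), so that the values of single libraries are given here as well. The recovered reads came to 21093899 and 17188944 in WT, 7384920 and 7686320 in Het, with KO at 9761008 and 12484009, so the Het libraries were the shallowest. Each listed gene had at least 1 read in every one of the 6 libraries. The recovered libraries carry no replicate number and no kit, and nothing in the labels says that they come from separate animals, so tests measure only the spread between these libraries.

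The 6 libraries were put into 2 sets that crossed the genotypes, by the side of the first principal component on which each library lay. This component held 66.8% of the variance, and each genotype had 1 library on each side. Set A held 1 WT, 1 Het and 1 KO library and set B the other 3. That the component separates the sets is thus fixed by how they were made. Across 14736 genes the log2 values of WT and Het correlated at r = 0.934 within set A and 0.965 within set B, against 0.893 between the 2 WT libraries and 0.860 between the 2 Het libraries. Set A was the looser: its WT library correlated at 0.903 with its KO library, against 0.905 with the Het and the KO library of set B. Those correlations describe genes that share libraries and carry no test. The sets were read from the data. They do not follow the kits in the labels, since both WT libraries were made with 1 kit. Library values below are given for set A and then for set B, and a log2 difference is that of Het over WT on the scale of log2(value + 0.5), which understates differences of low genes.

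Markers of mature sensory neurons were high in every library. The summed value of their 24 listed genes was 125564 and 74381 in WT and 116579 and 83056 in Het. S100a5, a calcium-binding protein of these neurons, was 69951 and 22629 in WT against 70564 and 27022 in Het. Omp, the olfactory marker protein by which mature neurons are recognised, was 17329 and 15992 in WT, 10344 and 10555 in Het, with KO at 3517 and 11707. Both Het libraries were below both WT libraries for Omp, at 59.7% of WT in set A and 66.0% in set B, and the difference did not pass limma's test (log2 -0.67 ± 0.50, SE, adjusted p = 0.87, with the set as a block).

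Dnmt3a itself (ENSMUSG00000020661) was lower in Het than in WT within each set. Its value was 125 and 224 in WT, 89.6 and 150.2 in Het, with KO at 47.6 and 64.8. Het stood at 71.5% of WT in set A and 67.0% in set B, and KO was the lowest library of each set. Because set B was higher in all 3 genotypes, the groups overlapped: the Het library of set B was above the WT library of set A. The values rest on 9974 and 11150 reads in WT and 2685 and 3566 in Het. The log2 difference was -0.53 ± 0.22 (SE) and did not pass over all genes (limma with the set as a block, adjusted p = 0.82). Which exons the null allele lacks is not given in the sources used here, and KO keeps reads of the gene, so that the level checks the labels only by its order.

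**Figure D1:**
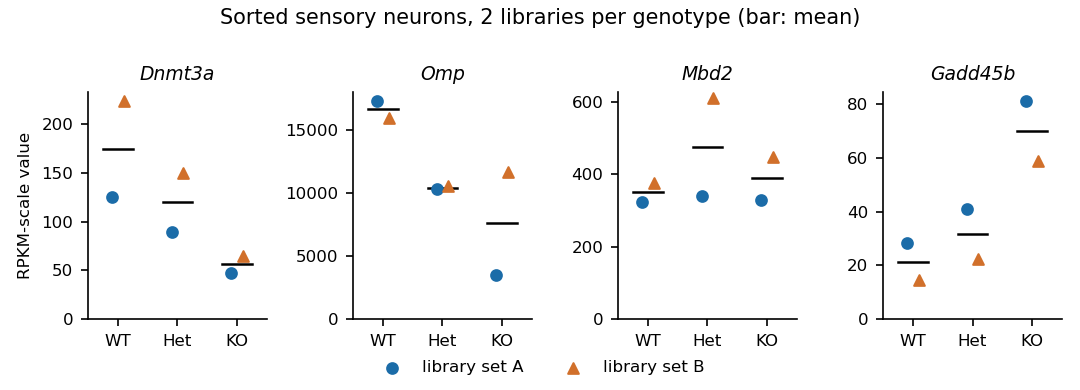
RPKM-scale value (y axis, from 0) of Dnmt3a, Omp, Mbd2 and Gadd45b in the 2 libraries of each genotype, with circles for set A, triangles for set B and a bar at their mean. Dnmt3a steps down from WT to Het to KO within each set, Omp is lower in both Het libraries than in both WT libraries, the Het library of set B is the highest of the 6 for Mbd2, and Gadd45b is higher in Het in both sets.

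Of the 20 listed genes of DNA methylation and its reading and removal, 0 were 2-fold apart in the pooled values. Their median log2 difference was -0.07, against -0.02 over all genes. In both sets 4 genes (20%) were higher and 6 (30%) lower, against 24.6% and 27.6% of all genes. Among the writers, Dnmt1 was 225 and 352 in WT against 232 and 272 in Het, level in set A and lower in Het in set B. Dnmt3b, the other de novo enzyme, stayed at or under 1.09 in all WT and Het libraries. Uhrf2, a relative of the Dnmt1 cofactor Uhrf1, was 43.4 and 118 in WT against 36.4 and 81.9 in Het, lower in Het within each set.

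Among the enzymes that oxidise or excise methylated cytosine, Tet3 was 179.7 and 176 in WT against 177 and 165 in Het, so that all 4 libraries lay close together. Tet1 and Tet2 had log2 differences of 0.19 and 0.08 in the pooled values. Tdg, the glycosylase that removes oxidised bases, was 20.4 and 62.6 in WT against 10.6 and 53.3 in Het. Gadd45b, an activity-induced gene linked to demethylation, was 28.2 and 14.6 in WT, 40.8 and 22.3 in Het, with KO at 81.1 and 58.9, higher in Het than in WT in both sets and highest in KO, on 68 and 22 WT reads and 37 and 16 Het reads. Mbd2, a reader of methylated DNA, was 324 and 375 in WT against 341 and 612 in Het, with 1 Het library above the rest. None of these differences passed limma's test, in which the smallest adjusted p of any gene was 0.82.

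Across the whole table, 1384 genes (9.39% of those tested) were at least 2-fold apart in the pooled values. Of these, 1016 genes were at least 2-fold higher in Het (6.89%) and 368 at least 2-fold lower (2.5%). Low genes carried most of these counts: among the 7372 genes above the median level, 61 were higher (0.827%) and 66 lower (0.895%). Genes with a mean of at least 50 reads made up 32.4% of the higher genes and 78.9% of all genes. With genes split by level into 10 classes of equal size, the median log2 difference was 0.27, 0.38 and 0.25 in the lowest 3 classes, and in the upper 5 it lay between -0.11 and -0.06. The counts moved with single libraries too. They were 3199 higher and 675 lower without the WT library of set A, 1397 and 761 without that of set B, 496 and 2024 without the Het library of set A, and 2206 and 2063 without that of set B, all without a test. The excess of higher genes also moved with the scaling: quantile normalization left 545 higher and 417 lower genes, so that the share of higher genes among those 2-fold apart went from 73.4% to 56.7%.

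The tests on the 6 recovered libraries called 0 genes. With limma on log2 values and no block, 41 genes stood above WT and 33 below it when p was left unadjusted (threshold 0.05). With the set as a block there were 518 and 364, and voom with the same block gave 510 and 452, again with 0 calls after adjustment. The called share was 0% in both directions. The fit without the block made no calls on simulated data either, so its 0 carries no information. With the block, the simulation called 24% of true log2 differences of 1 and 98% of those of 2. Its noise was a chosen value, not fitted to these libraries, so these shares need not hold here. The blocked 0 therefore does not show that 2-fold differences are absent.

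The differences in set A and set B were nearly unrelated. Across 14730 genes the 2 sets' log2 differences had r = 0.061, and 52.2% of genes had the same sign in both. Above the median level r was -0.023. The spread of log2 values over genes was an SD of 1.31 between the 2 WT libraries and 1.43 between the 2 Het libraries. That of Het over WT within a set was smaller, at 0.83 in set A and 0.75 in set B. The sets were made from these same values, so this contrast is no separate evidence for them. Both Het libraries were above both WT libraries for 1006 of 14730 genes (6.83%) and below both for 1074 (7.29%), so that groups without overlap were common among genes of any kind.

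**Figure D2:**
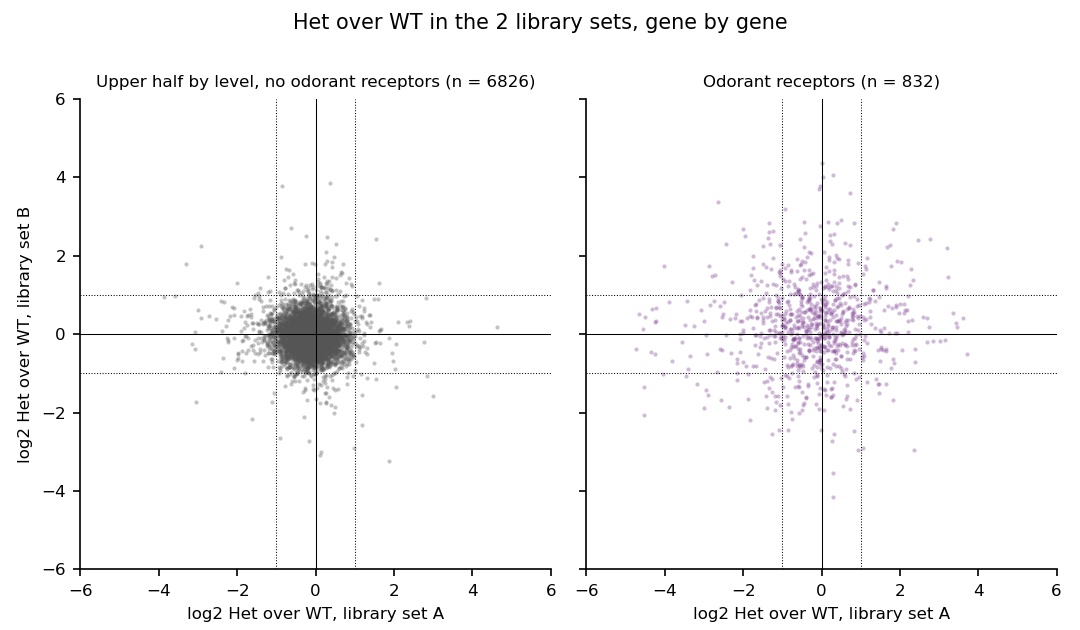
Log2 difference of Het over WT in set A (x axis) against set B (y axis), 1 point per gene, for genes above the median level without odorant receptors (left) and for 832 odorant receptors (right), with dotted lines at 2-fold. The left cloud is centred on 0 with no tilt, and the receptors are spread more widely, along both axes, with few in the corners where both sets are past 2-fold.

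Genes at least 2-fold apart in each set numbered 313 higher (2.12%) and 121 lower (0.821%). Above the median level they came to 9 higher (0.122%) and 21 lower (0.285%). Of those 9, 7 were odorant receptors and the others were Bex4 and Hist4h4. Of the 21, 17 were odorant receptors, and the other 4 were the trace amine receptor Taar7f, Gpt, Bcdin3d and 5430413K10Rik. This set of 30 was chosen after its values were seen, and it gets no test of its own.

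Bcdin3d, a methyltransferase that modifies the end phosphate of small RNAs, was 146 and 171 in WT, 67.0 and 51.3 in Het, with KO at 137 and 108. The 2 Het libraries were the lowest of the 6, and both WT libraries were above both KO libraries. Het stood at 45.8% and 30.1% of WT on 61 and 37 reads, a log2 difference of -1.42 ± 0.24 (SE, limma adjusted p = 0.82). Gpt, the alanine aminotransferase of amino acid metabolism, was 152 and 90.7 in WT, 72.2 and 31.7 in Het, with KO at 76.3 and 62.4, lower in Het than in WT and KO within each set. In 5430413K10Rik, a secreted protein gene of the BPI-fold family now named Bpifb9b, the values were 117 and 70.4 in WT, 37.8 and 15.3 in Het, with KO at 53.1 and 6.88. Its WT libraries were both above the Het and KO libraries.

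Bex4, a small X-linked gene of the brain-expressed family, was 98.6 and 12.1 in WT, 290.2 and 67.4 in Het, with KO at 155 and 101. Het was the highest library in set A and KO the highest in set B, and the WT library of set B rests on 12 reads. Hist4h4, a histone H4 gene, was 38.7 and 105 in WT, 121 and 259.8 in Het, with KO at 92.1 and 125. Both Het libraries were above both WT libraries, on 23 to 46 reads per library.

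**Figure D3:**
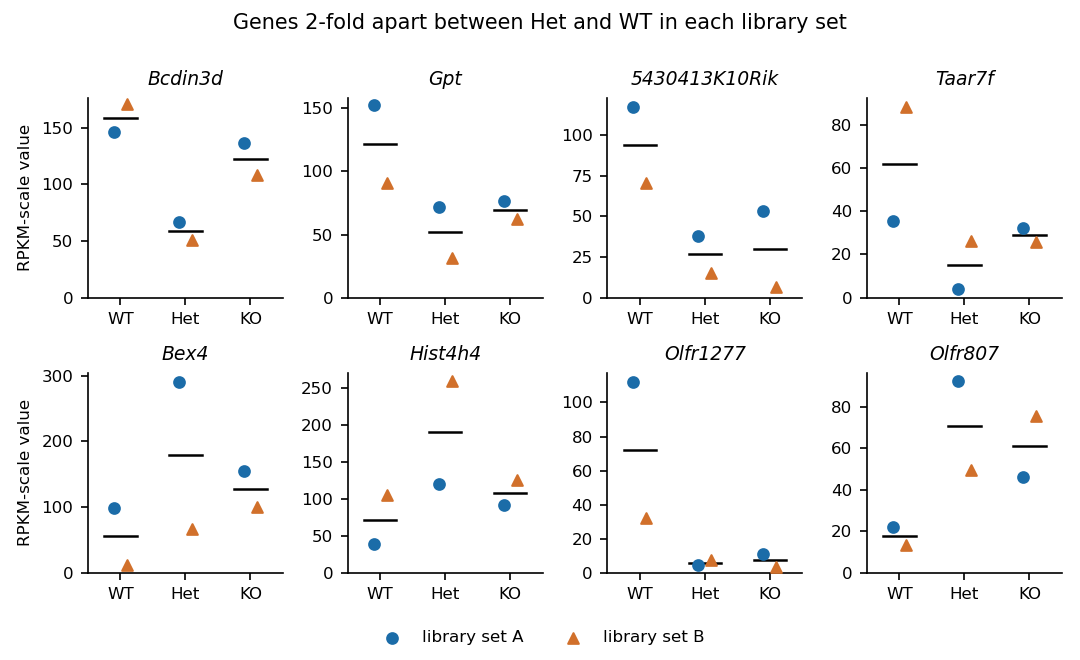
RPKM-scale value (y axis, from 0) in the 2 libraries of each genotype for 8 genes that were 2-fold apart between Het and WT in each set, with circles for set A, triangles for set B and a bar at their mean. Het lies below WT in each set for Bcdin3d, Gpt, 5430413K10Rik, Taar7f and Olfr1277 and above it for Bex4, Hist4h4 and Olfr807, while the KO libraries lie sometimes with Het and sometimes with WT.

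The start regions of 4 of these genes are shown because cytosines followed by guanine are the best-known substrate of Dnmt3a. Each is the 300 bases from 250 before to 50 after the RefSeq start in GRCm38.p6, written on the gene's strand with every CG in capitals. Bcdin3d lies at chr15:99474681-99474980, minus strand, Bex4 at chrX:136138746-136139045, plus strand, and 2 odorant receptors, Olfr1277 (lower in Het) and Olfr807 (higher in Het), at chr2:111270316-111270615, minus strand and chr10:129755399-129755698, minus strand.
Bcdin3d: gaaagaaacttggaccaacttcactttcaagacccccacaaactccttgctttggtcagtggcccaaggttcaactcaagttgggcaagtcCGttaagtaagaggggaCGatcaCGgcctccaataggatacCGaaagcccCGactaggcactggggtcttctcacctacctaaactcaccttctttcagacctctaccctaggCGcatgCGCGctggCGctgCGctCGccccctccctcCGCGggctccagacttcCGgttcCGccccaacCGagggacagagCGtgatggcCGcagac
Bex4: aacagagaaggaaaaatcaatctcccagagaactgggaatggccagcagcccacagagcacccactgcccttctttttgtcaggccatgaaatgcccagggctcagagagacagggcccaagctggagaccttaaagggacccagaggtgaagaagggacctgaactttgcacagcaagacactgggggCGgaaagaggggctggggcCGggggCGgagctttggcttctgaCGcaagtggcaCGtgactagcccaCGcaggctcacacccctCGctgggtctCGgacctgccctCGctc
Olfr1277: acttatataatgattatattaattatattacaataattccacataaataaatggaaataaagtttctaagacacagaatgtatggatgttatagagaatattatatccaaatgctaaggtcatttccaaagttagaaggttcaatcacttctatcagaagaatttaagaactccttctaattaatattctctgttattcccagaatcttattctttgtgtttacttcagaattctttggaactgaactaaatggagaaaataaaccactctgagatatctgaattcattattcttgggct
Olfr807: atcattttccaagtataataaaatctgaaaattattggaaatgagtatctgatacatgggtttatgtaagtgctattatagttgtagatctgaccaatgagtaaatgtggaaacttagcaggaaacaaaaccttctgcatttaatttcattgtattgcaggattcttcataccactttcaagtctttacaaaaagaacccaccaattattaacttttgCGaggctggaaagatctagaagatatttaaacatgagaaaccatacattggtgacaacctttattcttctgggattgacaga
Bcdin3d has 18 CG in this window, Bex4 has 9, Olfr1277 has 0 and Olfr807 has 1.

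Among 11601 tested genes matched by symbol to such a window the median number of CG was 19, and over all 32851 windows of this length 94.6% held at least 1 CG (the motif CG reads the same on both strands). Odorant receptors had a median of 1, and 230 of 690 had none. In both receptors printed above, the bases after the RefSeq start open with ATG, the codon that starts translation. Whether receptor windows hold the promoter was not checked, so their counts may not compare with those of other genes. Genes 2-fold higher in the pooled values had a median of 10 and those 2-fold lower a median of 4, against 12 for the lowest 3 of the 10 level classes, which hold most of the higher genes. Odorant receptors made up 75 of the 1016 higher and 71 of the 368 lower genes, before matching to a window. Receptors 2-fold higher and 2-fold lower in each set both had a median of 1. Methylation itself was not analysed here.

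By the pooled values, the genes furthest apart above the median level often owed this to 1 library. Acy1, an aminoacylase, had the highest log2 difference (2.21), and its values were 18.4 and 64.0 in WT against 22.4 and 362 in Het. The Het library of set B was far above the other 3. Ubtd2, a ubiquitin-domain gene, was 27.5 and 28.2 in WT against 197 and 54.0 in Het, highest in the Het library of set A, and Gpr27, an orphan G protein-coupled receptor, had log2 differences of 2.78 and -0.20 in the 2 sets. Nhlh2, a transcription factor of differentiating neurons, was 33.2 and 6.77 in WT against 42.9 and 105 in Het. In these 4 genes the other Het library lay within 2-fold of its WT partner.

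Both Het libraries were above both WT libraries for Insig1, which holds back sterol synthesis, at 32.4 and 27.6 in WT against 59.1 and 75.2 in Het. F2rl1, a protease-activated receptor, was 25.4 and 54.7 in WT against 48.2 and 134 in Het, higher in Het in each set, with log2 differences of 0.91 and 1.29. Hspa1b, a stress-induced chaperone, was 61.9 and 12.8 in WT against 155 and 15.5 in Het, and the difference lay mainly in set A.

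On the lower side, S100a13, a calcium-binding protein, was 59.1 and 303 in WT, 31.0 and 47.9 in Het, with KO at 39.2 and 54.7. It was lower in Het in both sets, and the WT library of set B was far above the other 5. Hist1h2al and the alpha globin gene Hba-a2 had pooled log2 differences of -2.19 and -2.02, but were higher in Het in set A (log2 1.87 and 1.18) and lower in set B (-3.24 and -2.31). Tmem205, a membrane protein, was 171 and 38.6 in WT against 35.6 and 35.9 in Het, and Psmb5, a catalytic subunit of the proteasome, was 464 and 123 in WT against 95.4 and 142 in Het. In both genes the WT library of set A was the 1 that stood apart.

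Odorant receptors, the genes that set what a neuron detects, had 832 members in the table. Their summed value was 67167 and 53513 in WT and 58904 and 60188 in Het, with both Het libraries between the 2 WT libraries. In the pooled values 75 receptors were at least 2-fold higher and 71 lower, 9.01% and 8.53% of the family, against 6.89% and 2.5% of all genes, with a median log2 difference of 0.02. Within the sets the median was -0.16 in set A and 0.24 in set B. Each receptor is made by a small share of the neurons, so a bulk library cannot tell fewer cells with a receptor from less RNA of it per cell. Receptor genes also resemble one another, and how reads that fit several copies were counted is not given in the sources used here.

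Receptor levels were less alike between libraries than those of other genes. The log2 values of the 832 receptors correlated at r = 0.684 between WT and Het in set A and 0.705 in set B, and at 0.444 between the 2 WT libraries. Between the 2 WT libraries 410 receptors (49.3%) were at least 2-fold apart, against 290 (34.9%) between WT and Het in set A and 271 (32.6%) in set B. Of the receptors 2-fold apart in both sets, 53 went the same way and 47 opposite ways. Both Het libraries were above both WT libraries for 97 receptors (11.7%, against 6.83% of all genes) and below both for 75 (9.01%, against 7.29%). In the limma test with the set as a block 0 receptors were called, and 128 of the 832 had an unadjusted p under 0.05, as did 882 of all 14730 genes.

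The receptors furthest from WT include some that differed the same way in both sets. Olfr1277, with the lowest pooled log2 difference (-3.52), was 112 and 32.3 in WT, 4.35 and 7.33 in Het, with KO at 10.9 and 3.69, with 3 and 4 reads in Het. Both Het and both KO libraries were below both WT libraries. Olfr48 was 98.6 and 58.5 in WT, 12.3 and 21.4 in Het, with KO at 15.4 and 27.5, and again all Het and KO libraries were below both WT libraries. Olfr523 was 147 and 276 in WT against 60.8 and 46.7 in Het, and Olfr1420 was 93.4 and 369 in WT against 43.8 and 67.0 in Het. In each of these 2 both Het libraries were below both WT libraries.

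Above WT, Olfr807 was 22.1 and 13.5 in WT, 92.4 and 49.5 in Het, with KO at 46.3 and 75.7, and all Het and KO libraries were above both WT libraries. Olfr1323, below the median level, was 6.78 and 9.95 in WT, 66.0 and 47.4 in Het, with KO at 19.7 and 16.2, the largest pooled excess of any receptor (log2 2.69). Olfr11, Olfr24 and Olfr822 were also among the 6 highest above the median level, and for them the excess came mainly from set B (log2 4.36, 2.32 and 3.61, against 0.01, 0.61 and 0.74 in set A). For Olfr351 and Olfr1513 it came mainly from set A.

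The most abundant receptors were closer to WT in the pooled values. Olfr1507, the highest in WT, was 2195 and 362 in WT against 1779.6 and 552 in Het, lower in Het in set A and higher in set B. Olfr969 and Olfr1297 had pooled log2 differences of -0.05 and -0.14. Of the 17 receptors above the median level that were 2-fold lower in each set, 8 lie on chromosome 2 in RefSeq's GRCm38.p6 annotation, as do 127 of the 539 receptors above it with a known chromosome. Of the 7 that were higher, 1 does. No chromosome other than 2 was counted, and these receptors were picked by their values, so the counts carry no test.

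Trace amine-associated receptors, a small second family of olfactory receptors for amines, had 9 listed genes. Of these, 8 had a lower pooled value in Het, as did 7720 of 14738 genes. The median log2 difference of the 9 was -0.28, -0.34 in set A and -0.27 in set B. In both sets 3 genes (33.3%) were lower and 0 higher, against 27.6% and 24.6% of all genes. The other 6 had opposite signs in the 2 sets. Taar7f was 35.6 and 88.2 in WT, 3.89 and 26.2 in Het, with KO at 32.3 and 25.6, with 3 and 16 reads in Het. Taar3 was 3.32 and 38.7 in WT against 2.52 and 15.9 in Het, with most of its difference in set B, and Taar2, the most abundant, was 107 and 106 in WT against 84.9 and 162 in Het.

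Most genes of the odor transduction cascade had a slightly lower pooled value in Het, with 0 of them called by limma. Of 19 listed genes 16 had a lower pooled value, as did 7720 of 14738 genes, with a median log2 difference of -0.10. Of the 19, 16 lie above the median level, where the level classes of all genes had medians between -0.11 and -0.06. In both sets 9 were lower and 0 higher, against 27.6% and 24.6% of all genes. Stoml3, a membrane scaffold of the cilia, was 38496 and 34625 in WT against 35848 and 42129 in Het. Gng13, a G protein gamma subunit, was 19624 and 6038 in WT against 14998 and 9615 in Het, lower in Het in set A and higher in set B. Cnga2, the main subunit of the cyclic nucleotide-gated channel, was 4276 and 10594 in WT against 2622 and 10662 in Het, lower in set A and level in set B. Rgs2, a brake on G protein signalling, was the 1 member 2-fold apart, on 1 read in the Het library of set A.

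Cilia and synapse genes mostly had small negative differences, and limma called 0 of them. Of 34 genes of ciliary transport and the axoneme, 29 had a lower pooled value, with a median of -0.18 (-0.20 in set A and -0.18 in set B), and 17 (50%) were lower and 2 (5.88%) higher in both sets, against 27.6% and 24.6% of all genes. Bbs4, of the Bardet-Biedl complex, was 432 and 1168 in WT against 309 and 1113 in Het. Arl3, a small GTPase of ciliary trafficking and the most abundant member, went the other way at 3979.9 and 3429.8 in WT against 4937 and 4523 in Het, with both Het libraries above both WT libraries. Of 30 genes of synaptic vesicles and release, 22 had a lower pooled value, with a median of -0.13, and 19 (63.3%) were lower and 3 (10%) higher in both sets. Slc17a6, the vesicular glutamate transporter of these neurons, was 1559 and 1522 in WT, 1268 and 1305 in Het, with KO at 699 and 849, with Het between WT and KO in each set. Syp, synaptophysin, was 359.8 and 1289 in WT against 326 and 1047 in Het. In the upper 5 level classes, which hold all 34 cilia genes and 22 of the 30 synapse genes, all genes had medians between -0.11 and -0.06. Under quantile normalization the medians were -0.10 for cilia and -0.06 for synapse genes.

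**Figure D4:**
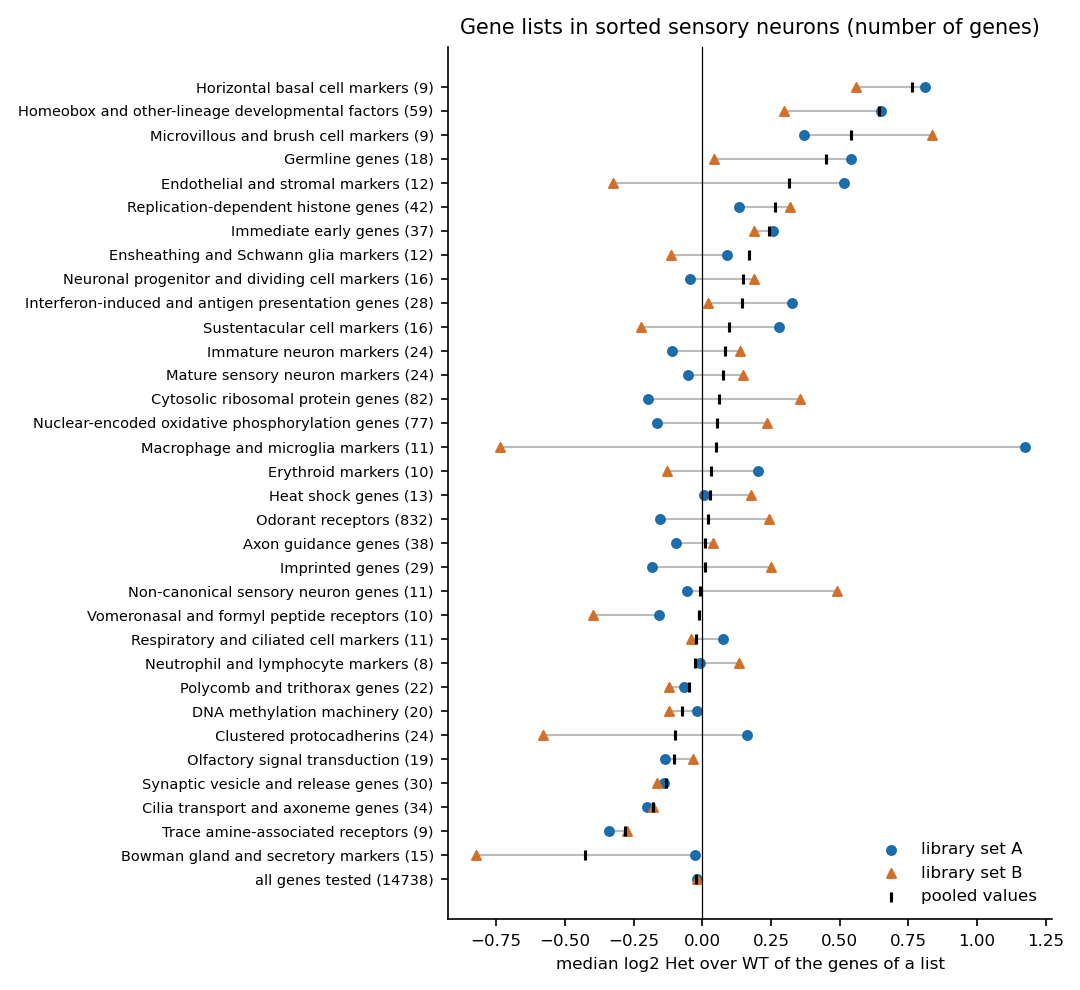
Median log2 difference of Het over WT (x axis) for each gene list of at least 5 genes, with circles for set A, triangles for set B, a tick for the pooled values and the number of genes in brackets. Developmental factors and horizontal basal cell markers lie furthest to the right in the pooled values, cilia and synapse genes lie just left of 0 in both sets, and several marker lists, macrophages above all, lie on opposite sides of 0 in the 2 sets.

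Homeobox and other transcription factors of other lineages, many of them held silent in neurons, were more often higher in Het than all genes were. Of 59 listed genes with values, 48 were higher in the pooled values, 19 at least 2-fold (32.2%) and 0 at least 2-fold lower. The share 2-fold higher was 6.89% over all genes and 13% over the genes below the median level, where 57 of the 59 lie. In both sets 31 were higher and 6 lower, or 52.5% and 10.2%, against 24.6% and 27.6% of all genes. Their median log2 difference was 0.64, 0.65 in set A and 0.30 in set B. It was 0.65 among the 30 with a mean of at least 50 reads, where all genes had -0.06, and 0.63 among the other 29, where all genes had 0.34. These reference medians are not matched for level. Over all genes the lowest 5 level classes had medians of 0.27, 0.38, 0.25, 0.01 and -0.07. Both Het libraries were above both WT libraries for 5 of the 59 (8.47%, against 6.83% of all genes) and below both for 1. The limma test called 0 of them, and 3 were 2-fold higher in each set.

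Neurog3, a proneural factor of the gut and pancreas, had the largest difference, at 1.02 and 1.09 in WT, 28.1 and 2.29 in Het, with KO at 29.4 and 1.73. Only the Het and KO libraries of set A were high, and the WT values rest on 3 and 2 reads. Six3, a homeobox factor of the forebrain and eye, was 1.88 and 0.114 in WT, 7.18 and 1.43 in Het, with KO at 3.18 and 3.43, higher in Het by a like log2 difference in both sets (1.69 and 1.65). Hoxb2, a homeobox gene of the hindbrain, was 5.09 and 2.80 in WT, 21.1 and 4.27 in Het, with KO at 17.1 and 1.61, with most of its difference in set A. Of the abundant members, Olig2 was 2795 and 407 in WT against 2969.7 and 441 in Het, and Sox11 had a pooled log2 difference of 0.05. Tbx2 was lower in Het in each set at 35.4 and 10.2 in WT against 23.5 and 7.29 in Het. Under quantile normalization the list's median was 0.30. The start regions of the 37 with a sequence had a median of 15 CG.

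**Figure D5:**
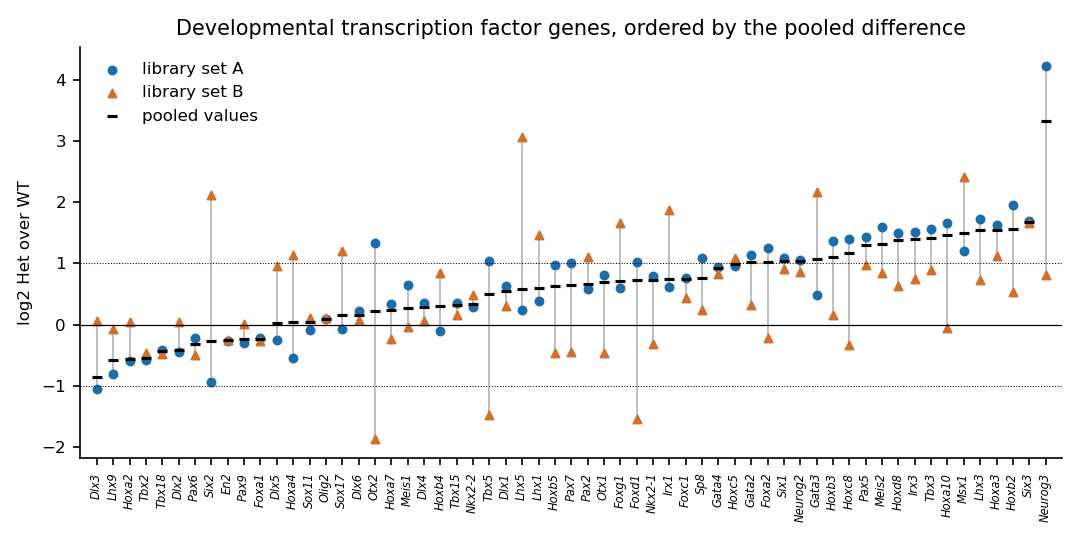
Log2 difference of Het over WT (y axis) for each of the 59 developmental transcription factor genes (x axis, ordered by the pooled difference), with circles for set A, triangles for set B, a dash for the pooled values and dotted lines at 2-fold. Pooled differences reach from -0.86 in Dlx3 to 3.33 in Neurog3, 48 of them are above 0, and the 2 sets disagree in sign for 22 genes.

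Germline genes, many of which are kept methylated in somatic cells, numbered 18 with values, of which 12 were higher. At least 2-fold higher was 1, Piwil1 (5.56%), against 6.89% of all genes and 13% of the genes below the median level. Of the 18, 16 lie below that level. The list's median log2 difference was 0.45, 0.54 in set A and 0.04 in set B. Over all genes the lowest 5 level classes had medians of 0.27, 0.38, 0.25, 0.01 and -0.07. Piwil2, a small RNA-binding protein of the germline, was 27.6 and 27.4 in WT, 45.5 and 45.2 in Het, with KO at 39.5 and 19.5, so that the 2 WT libraries agreed and both Het libraries were higher by a log2 of 0.71. Piwil1 was 17.9 and 3.20 in WT, 38.9 and 6.25 in Het, with KO at 50.3 and 15.8, highest in KO in each set. Brdt, the most abundant, was 146 and 324 in WT against 188 and 315 in Het.

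Polycomb and trithorax genes, whose products mark developmental genes, showed 0 of 22 members 2-fold apart and a median of -0.05. Kdm6b, a histone demethylase, was 517 and 114 in WT against 561 and 112 in Het, and differed more between sets than between genotypes.

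Immediate early genes, the first genes induced by neuronal activity, more often had a higher than a lower value in Het, with 0 called by limma. Of 37 listed genes 24 had a higher pooled value, with a median log2 difference of 0.24 (0.26 in set A and 0.19 in set B), and 18 (48.6%) were higher and 3 (8.11%) lower in both sets, against 24.6% and 27.6% of all genes. Over all genes 7018 of 14738 had a higher pooled value. Fos itself was 995 and 286 in WT, 928 and 300.1 in Het, with KO at 541 and 457, about level between WT and Het in each set, and Jun was 1509.8 and 917 in WT against 2115 and 947 in Het. Other members, named after their values were seen, were higher in both sets: Junb (log2 0.73 and 0.99), Arc (0.88 and 0.61) and Fosl2 (0.84 and 0.64). Within WT, Fos differed by more between the 2 libraries than between WT and Het in either set. Among the 21 members above the median level of all genes the list's median was 0.01.

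Ribosomal protein and oxidative phosphorylation genes had medians of opposite sign in the 2 sets. Cytosolic ribosomal protein genes (82) had a median log2 difference of -0.20 in set A and 0.35 in set B, and 60 of them had opposite signs in the 2 sets. The 77 nuclear genes of oxidative phosphorylation had -0.17 in set A and 0.24 in set B. Replication-dependent histone genes (42), whose transcripts lack a poly(A) tail, had a median of 0.26, with 0.13 in set A and 0.32 in set B. In this list 3 members were 2-fold higher and 3 lower (7.14% each), against 6.89% and 2.5% of all genes. Hist1h1e, a linker histone, was 1642 and 942 in WT against 2568 and 1687 in Het, and both Het libraries were above both WT libraries.

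Marker lists of other cells of the epithelium had lower summed values than that of mature sensory neurons. Some single markers, such as Foxj1 of ciliated cells (531 in pooled WT), were above some neuron markers, such as Emx2 (316). The part of these other cells in the differences above was not tested. Horizontal basal cells, the reserve stem cells, had 9 listed markers with a summed value of 30.9 and 13.9 in WT, 56.1 and 22.2 in Het, with KO at 113 and 125. Of them 4 (44.4%) were at least 2-fold higher in Het, against 6.89% of all genes. All 9 lie below the median level, where the share was 13%. Krt5, 1 of these 4, was 3.85 and 1.91 in WT, 14.1 and 2.67 in Het, with KO at 18.4 and 31.4. Of the 9, 1 was 2-fold higher in each set, as were 2.12% of all genes, and 3 had a lower pooled value. Trp63 was lower in both sets (log2 -0.03 and -0.79), and 3 markers had opposite signs in the 2 sets. Sustentacular cells, the supporting cells, had 16 markers with a sum of 553 and 1007 in WT and 703 and 1242 in Het. Without Ugt2a1, left out after its values were seen, the sum was 373 and 836 in WT against 462 and 625 in Het, so that Het was then the lower library in set B. Within that list Ugt2a1, an odorant-metabolising transferase, was 179 and 171 in WT, 241 and 617 in Het, with KO at 292 and 1268, while Cyp2g1 was 84.8 and 179.7 in WT against 96.4 and 159 in Het. The 2 members 2-fold lower were Cyp2a4 (log2 -1.33) and Sec14l3 (-1.13).

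Markers of Bowman's glands, the mucus glands of the epithelium, had a lower summed value in Het in each set. Their 15 listed genes summed to 428 and 241 in WT and 238 and 95.8 in Het, and 4 (26.7%) were at least 2-fold lower with 0 higher, against 2.5% and 6.89% of all genes. The list's median was -0.03 in set A and -0.82 in set B, and Sox9, Muc5b and Dmbt1 were higher in Het in both sets. The 4 lower genes were 5430413K10Rik, described above, Plunc, a secreted airway protein, at 94.7 and 48.4 in WT against 17.2 and 24.7 in Het, Ltf, the iron-binding lactoferrin also made by neutrophils, at 12.7 and 29.1 in WT against 2.55 and 7.71 in Het, and Lcn13, a lipocalin. Microvillous cell markers (9) had a median log2 difference of 0.54, with Coch, the most abundant, at 276 and 135 in WT against 357 and 242 in Het. Of the 9, 3 had a lower pooled value, with Trpm5 lower in both sets (log2 -0.38 and -0.09). At least 2-fold higher was 1 (11.1%), against 13% of the genes below the median level, where 8 of the 9 lie. Over all genes the lowest 5 level classes had medians of 0.27, 0.38, 0.25, 0.01 and -0.07.

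Blood and immune markers varied between libraries. The 11 macrophage markers had a median of 1.17 in set A and -0.74 in set B. The 10 erythroid markers summed to 2427 and 2494 in WT, 2887 and 685 in Het, with KO at 4912 and 271. Cd79a, a B cell receptor component, was 24.9 and 5.19 in WT against 3.83 and 1.21 in Het, lower in Het in each set, with 4 and 1 reads in Het. The 4 listed Y-linked genes were lower in Het than in WT in both sets, with Ddx3y at 70.3 and 226 in WT, 30.4 and 162 in Het, with KO at 32.1 and 0.574 and Eif2s3y at 174 and 243 in WT, 40.5 and 133 in Het, with KO at 139 and 0.629. The share of RNA from male animals thus differed between libraries, and its part in the differences above was not tested.

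Shares of the remaining lists are read against 6.89% of all genes 2-fold higher and 2.5% lower, and against 13% and 4.1% of the 7366 genes below the median level. Immature neuron markers (24 genes) had a median log2 difference of 0.08, with Nhlh2, described above, the 1 member 2-fold apart. Markers of dividing progenitors (16) had a median of 0.15, with 3 members 2-fold higher (18.8%), led by the mitotic gene Birc5 (log2 1.70), and 1 lower. Axon guidance genes (38) had a median of 0.01 and heat shock genes (13) one of 0.03, each with 1 member 2-fold higher, the receptor Epha4 (log2 1.26) and the chaperone Hspa1b. Vomeronasal and formyl peptide receptors (10) had -0.01, with 2 higher and 2 lower (20% each), and genes of sensory neurons that use another transduction pathway (11) had -0.01, with 3 higher (27.3%). The medians were 0.32 for endothelial and stromal markers (12), 0.17 for glia (12), -0.02 for ciliated respiratory cells (11), 0.10 for sustentacular cells and -0.03 for neutrophils and lymphocytes (8), with 0 to 2 members 2-fold apart in each direction. Among these, 2 of the 12 glia genes (16.7%) and 2 of the 8 neutrophil and lymphocyte genes (25%) were 2-fold lower, and all genes of both lists lay below the median level. Of the non-coding RNA list only Snhg11 had a value (log2 -0.88). No mitochondrially encoded gene and no small structured RNA of the lists was among the genes tested.

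The same genotype contrast in whole olfactory epithelium, measured in other libraries (1 per genotype with water or odor for 60 min, all NuGEN), called 0 of 14602 genes by limma, with 395 genes above WT and 582 below it at an unadjusted p under 0.05 and a smallest adjusted p of 0.71. Without the WT water library it called 27, of which 24 were higher. For 13364 genes in both tables the pooled log2 difference in sorted neurons and that in epithelium had r = 0.183 across genes. Of the 689 genes 2-fold higher in Het neurons and present in the epithelium table, 45.1% were higher in Het with both treatments, against 29.3% of all genes. Of the 275 that were 2-fold lower, 20.7% were lower with both treatments, against 29.9% of all. These comparisons were not matched for level, and 955 of the 1016 genes 2-fold higher in Het neurons lie below the median level. For single genes, Dnmt3a was lower (log2 -0.74 with water and -0.42 with odor), Bex4 higher (0.59 with water and 0.13 with odor) and Bcdin3d lower (-0.35 with water and -0.13 with odor). The 516 odorant receptors in both tables had medians of -1.02 and -0.81 in the epithelium, where Omp too was lower in Het (-1.91 with water and -3.44 with odor).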

How the data were processed

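The authors deposited RPKM values, with 1 column per genotype for sorted neurons and 1 per library for whole epithelium. Per the submitters' processing notes, Bowtie2 2.1, STAR 2.3.0, Picard 1.64, featureCounts and DESeq were used with the builds mm9 and NCBIM37, with no roles stated. From the values, each is whole reads per kilobase over a size factor that lies within 0.973 to 1.031 of a median-ratio size factor, and a pooled value is the mean of 2 libraries. The reads were recovered within a relative tolerance of 1e-12 (largest relative error 5.33e-15); 1 gene fitted several ways and 7 fitted none, and these 8 were left out of work on single libraries. The recovery and the fits were tested on simulated data.

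The filter was a value of at least 0.5 in 2 of the 3 genotype columns. Differences were taken on log2(value + 0.5), and those of 2-fold or more were counted without a test, as planned for a pooled table. After the data were seen, limma 3.58.1 (R 4.3.3, two-sided, mean-variance trend, Benjamini-Hochberg, threshold 0.05) was added on the 6 libraries, without a block and with the library set as a block (2 residual degrees of freedom), and voom on the reads. The epithelium was fitted with treatment as a block.

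Identifiers were matched to reference symbols (14464 of the neuron table). Named genes were the DNA methylation list, the 15 highest and 15 lowest non-receptor genes and 6 highest and 6 lowest odorant receptors above the median level, and per list up to 3 of the highest WT value and up to 3 that were 2-fold apart with the largest difference. The members, the 37 lists and these rules were chosen with earlier results of these data known. Counting error alone is large for genes with few reads, and the number of libraries limits the rest. The series' other samples (methylated and hydroxymethylated DNA, histone marks, DNase) were not analysed here. Some values of single genes are not reported here.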

Additional observations from a re-analysis of the deposited data

Results flagged for a closer look

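In 8 named genes both library sets of sorted neurons went one way between Het and WT and both treatments of whole epithelium the other way; the difference between the tissues was not tested. Tet3, a methylcytosine oxidase, had a pooled log2 difference of -0.060 in neurons (-0.02 and -0.10 in the 2 sets), but in epithelium it was 167 and 244 in WT and 906 and 2235 in Het, with water and odor. S100a13 was lower in neurons (-2.19) and higher in epithelium (1.12 with water and 0.93 with odor), and so was Aars2, a mitochondrial alanyl-tRNA synthetase (-1.19, against 0.22 with water and 0.33 with odor).

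The other 5 were higher in neurons and lower in epithelium. The methyl-CpG readers Zbtb33 and Mbd2 had 0.15 and 0.44 in neurons, against -0.29 with water and -0.40 with odor, and -0.43 with water and -0.09 with odor. Klhl21, a ubiquitin ligase adaptor, had 1.49, mostly from set A. The odorant receptors Olfr822 and Olfr807 had 1.81 and 1.96 in neurons and -0.77 with water and -2.76 with odor, and -2.63 with water and -1.95 with odor, in epithelium, where receptors as a family were lower too.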

How the results depend on the processing

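No paired analysis was possible because the table holds 1 pooled value per genotype and the recovered libraries carry no replicate number; the block used is the library set read from the data. The counts of genes 2-fold higher and lower in Het, 1016 and 368, stayed within 1.5 times with a pseudocount of 0.1, median centring and no filter. They were 267 and 138 with a pseudocount of 5, 61 and 66 above the median level, 2174 and 1127 at 1.5-fold, and 292 and 108 at 3-fold, and quantile normalization gave 545 higher. Settings chosen after the data were seen gave 313 and 121 in each set, and 0 and 0 calls by limma with the block and by voom, and also without the block, where the fit could not make calls on simulated data. Leaving out each of the 4 libraries in turn gave 496 to 3199 higher and 675 to 2063 lower, the extremes being without the Het library of set A and without the WT library of set A for higher genes, and without the WT library of set A and without the Het library of set B for lower ones. Blocked limma called 0 genes under every leave-one-out and under a pseudocount of 5, no trend, or at least 50 reads per library, with a smallest adjusted p of 0.063 to 0.95. The epithelium calls ranged from 0 to 27 when each library was left out, the 27 (24 higher, 3 lower) without the WT water library, and were 0 otherwise.

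Of 248 values of named genes under other pseudocounts and scalings, 243 moved by less than the spread between sets and 0 changed sign from a call. Within a single set 8 genes past 2-fold changed sign: Hist1h2al (1.87), Hba-a2 (1.18), Fam124a (0.97), Fxyd6 (0.51) and Hist1h4j (-2.93) in set A, and Psmb5 (0.20), Ifitm3 (-0.10) and Gpr27 (-0.20) in set B. The cause was not tested. Few reads limit low genes: 703 and 2647 genes had under 10 in the Het libraries of sets A and B, against 192 and 1933 in WT, more in set B for both genotypes, and a gene absent from 1 library is not listed.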

Other observations

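Clustered protocadherins, adhesion proteins whose combination labels single neurons, differed in sign between the sets. Their 24 listed genes had a median log2 difference of 0.16 in set A and -0.58 in set B, and 7 (29.2%) were lower and 3 (12.5%) higher in both sets, against 27.6% and 24.6% of all genes. Pcdhb1, by far the most abundant, was 1215 and 6158 in WT, 982 and 5228 in Het, with KO at 669 and 3676, lower in Het in each set. Pcdhb11 was 57.9 and 81.4 in WT against 16.2 and 40.9 in Het, the 1 member 2-fold apart.

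Imprinted genes, which carry methylation on 1 parental copy, showed 0 of 29 members 2-fold apart and a median of 0.01. Nap1l5, a nucleosome assembly factor gene, was 523 and 517 in WT, 704 and 858 in Het, with KO at 849 and 881, and both Het libraries were above both WT libraries. Peg3 was 100.3 and 322 in WT against 97.4 and 159 in Het, lower in Het mainly in set B. Among 28 interferon-induced and antigen presentation genes, 4 (14.3%) were 2-fold higher and 1 (3.57%) was 2-fold lower. The shares were 6.89% and 2.5% over all genes, and 13% and 4.1% over those below the median level. Of the 28, 25 lie below that level. The lower gene was Ifi27l1, at 47.3 and 18.9 in WT against 15.8 and 9.14 in Het. B2m, the light chain of class I antigen presentation, was 425 and 124 in WT against 625 and 203 in Het, higher in Het in each set.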
